A study of Mus musculus with 35 samples.

Results

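Mild acidification of the medium, pH 7 against the physiological pH 7.4, was examined in CTLs kept without IL-2. CTLs (cytotoxic T lymphocytes) are activated CD8+ T cells that kill target cells and secrete cytokines. The comparison took every library whose label gives 24 h at pH 7 with no cytokine (5) and every library at pH 7.4 with no cytokine (5), which is 10 of the 35 libraries of the series. The cells were mouse OT-I CTLs, which carry a transgenic T cell receptor for an ovalbumin peptide, primed with antibodies to CD3 and CD28 and expanded in IL-2 before the test cultures. The 24 h cultures all used the same low-glucose medium, with HCl used to reach the desired pH. Dead cells were removed on Ficoll before RNA extraction. The other groups were cells at the start of culture (0 h), the pH 6.6 culture of 24 h without IL-2, and 24 h cultures in 200 IU/mL mouse IL-2 at each of the 3 pH values, each with 5 biological replicates (n1 to n5). These are cultured cells of a single receptor specificity, and each group was sampled at a single time.

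IL-2 is the cytokine that drives CTLs through the cell cycle, by way of the JAK kinases and STAT5, and CTLs deprived of it slow their growth and leave the cycle. Genes for mitosis, the stage in which chromosomes condense, attach to the spindle and separate, are read late in the cycle in G2 and M phases, whereas genes for DNA replication are read in S phase. Interferon-gamma, a cytokine that CTLs themselves secrete, and type I interferons act on a shared set of antiviral and GTPase genes.

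The 10 libraries held 21982865 to 34033340 counts on genes, the medians being 22835588 (pH 7) and 22925388 (pH 7.4). No copies were found among the pairs checked: the 20 pairs of libraries of the same group differed with a chi-square per degree of freedom of at least 11.1. The CD8 T cell markers Cd8a (888 to 1149 CPM, reads relative to the library's normalized total), Cd8b1 (352 to 414 CPM) and Cd3e (413 to 457 CPM) were present in all 10. Of the 13 B cell markers, 4 had no count in any of the 10, and Cd79a reached at most 6 counts. Ighm of the same list was at 265 to 737 CPM, and Cd79b, Ighd and Bank1 were at most at 3.26 CPM. Of the 19 myeloid markers, 7 had no count, while Cd68 was at 8.21 to 18.6 CPM and Fcgr3 at 4.51 to 7.11 CPM. In bulk RNA, fewer cells of a kind and less RNA per cell cannot be told apart.

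**Figure D1:**
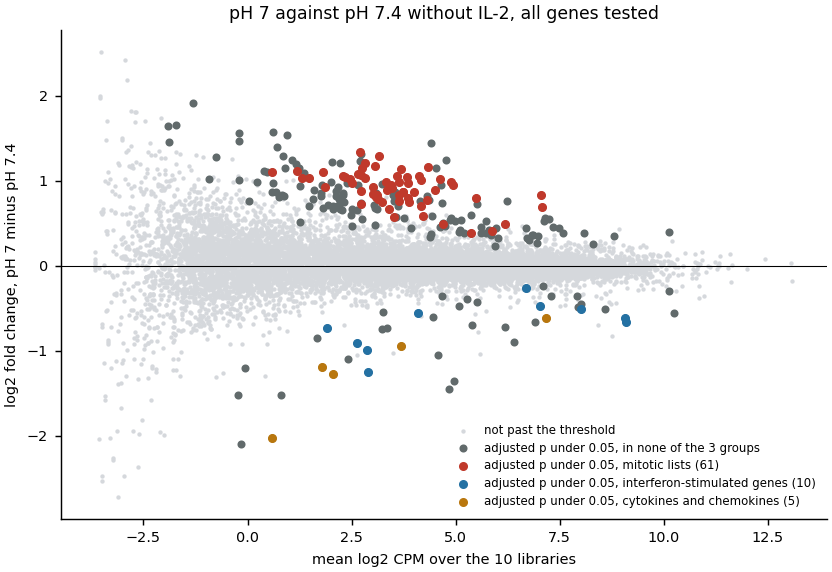
Log2 fold change of pH 7 over pH 7.4 without IL-2 (y axis) against the mean log2 CPM of the 10 libraries (x axis) for the 13819 genes tested. Of the 232 genes past the threshold, 188 lie above 0 and 44 below, and the red points, 61 genes of the 5 mitotic lists, all lie above 0.

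At pH 7, genes of mitosis were higher and genes of the interferon response, chemokines, granzyme B and metallothioneins were lower than at pH 7.4. Of the 13819 genes tested by edgeR's quasi-likelihood test with Benjamini-Hochberg adjustment and the replicate number as a block, 232 (1.68%) passed at an adjusted p under 0.05, 188 (1.36%) of them higher and 44 (0.318%) lower at pH 7. A further measure of size is that 62 of these 232 changed by at least 1 on the log2 scale, and that 219 moved the same way in all 5 pairs of replicates. The median log2 fold change over all genes was 0.002, and 1124 genes had an unadjusted p under 0.05. The calls depended on the replicates: leaving n2 out of every group gave 35 calls, leaving out n3 90, n4 141, n5 154 and n1 332. All 232 genes kept their direction in each of these fits that tested them, a weak check. Most (219) moved alike in all 5 pairs, and all were called on the same data.

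The promoters of some of the genes named below are given here with the letters of known regulatory motifs, so that the groups can be seen beside their sequence. They are RefSeq windows of 250 bases before to 50 after the start (GRCm38.p6), written 5′ to 3′ on the gene's strand. In the mitotic genes the capitals mark the cell cycle homology region, TTTGAA, and the CCAAT box, both of which are known from promoters that are active in G2 and M. Both strands were searched, so a motif can be printed as its reverse complement, and no marked motifs overlap each other.
Aurka (chr2:172370521-172370820, minus strand): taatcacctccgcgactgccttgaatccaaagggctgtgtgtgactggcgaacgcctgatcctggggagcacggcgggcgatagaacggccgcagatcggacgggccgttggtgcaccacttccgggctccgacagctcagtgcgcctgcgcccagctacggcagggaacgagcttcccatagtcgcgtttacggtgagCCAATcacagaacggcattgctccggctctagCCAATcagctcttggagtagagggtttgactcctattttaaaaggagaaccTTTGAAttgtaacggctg
Ccnb1 (chr13:100786437-100786736, minus strand): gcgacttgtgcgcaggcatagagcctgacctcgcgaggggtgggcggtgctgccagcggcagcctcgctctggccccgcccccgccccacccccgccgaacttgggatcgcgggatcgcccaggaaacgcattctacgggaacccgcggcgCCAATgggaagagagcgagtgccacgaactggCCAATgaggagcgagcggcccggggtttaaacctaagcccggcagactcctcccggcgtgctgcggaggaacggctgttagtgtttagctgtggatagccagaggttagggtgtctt
Cdc20 (chr4:118437294-118437593, minus strand): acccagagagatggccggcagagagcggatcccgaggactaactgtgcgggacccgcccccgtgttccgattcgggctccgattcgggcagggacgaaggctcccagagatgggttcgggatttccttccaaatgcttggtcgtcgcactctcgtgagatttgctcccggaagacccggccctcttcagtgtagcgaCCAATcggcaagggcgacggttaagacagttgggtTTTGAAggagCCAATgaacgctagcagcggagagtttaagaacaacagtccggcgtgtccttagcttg
Top2a (chr11:99024140-99024439, minus strand): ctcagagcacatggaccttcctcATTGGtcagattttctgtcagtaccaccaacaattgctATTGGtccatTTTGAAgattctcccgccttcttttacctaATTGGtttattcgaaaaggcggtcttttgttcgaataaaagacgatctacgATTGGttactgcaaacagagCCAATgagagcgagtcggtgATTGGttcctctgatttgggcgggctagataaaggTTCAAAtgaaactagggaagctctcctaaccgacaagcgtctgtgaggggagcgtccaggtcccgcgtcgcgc

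The Ccnb1 window held CCAAT but not TTTGAA, as did that of Troap, and those of Neil3 and Ncaph held neither. Of the 32841 promoter windows of all genes, 17.9% held TTTGAA and 37.4% held CCAAT, and of the 12692 windows of genes tested 12.2% and 37.7% did. The 115 windows found for 100 genes of the mitotic lists held them in 53.9% and 65.2%. In the interferon-stimulated genes the capitals mark the core of the interferon-stimulated response element, GAAA followed after any 2 bases by GAAA, which was in 3.44% of all windows, 3.21% of those of genes tested and 45.2% of the 31 windows of the interferon-stimulated list. The windows of Ifit3 and Ifit1 held 2 each, and that of Oasl2 held none.
Ifit3 (chr19:34583279-34583578, plus strand): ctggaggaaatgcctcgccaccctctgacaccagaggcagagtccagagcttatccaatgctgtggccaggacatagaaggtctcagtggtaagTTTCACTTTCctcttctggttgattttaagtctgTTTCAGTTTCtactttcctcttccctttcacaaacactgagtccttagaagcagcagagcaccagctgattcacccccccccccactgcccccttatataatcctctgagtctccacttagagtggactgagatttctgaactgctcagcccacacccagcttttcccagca
Ifit1 (chr19:34640639-34640938, plus strand): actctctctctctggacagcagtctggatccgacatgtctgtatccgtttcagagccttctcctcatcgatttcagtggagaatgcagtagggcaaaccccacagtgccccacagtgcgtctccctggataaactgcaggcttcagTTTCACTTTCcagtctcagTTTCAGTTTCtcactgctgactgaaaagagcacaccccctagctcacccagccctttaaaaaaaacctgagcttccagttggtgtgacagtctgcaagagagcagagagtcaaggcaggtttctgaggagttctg

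In the metallothionein genes the capitals mark the core of the metal response element, TGCACNC or TGCGCNC, the site of the zinc-sensing factor MTF1. It was in 25.7% of all windows and 35.2% of those of genes tested, and 4 or more copies were in 0.518% and 0.78%. The Mt1 window held 3 and the Mt2 window 4. These are matches of letters, and binding was not measured.
Mt1 (chr8:94178839-94179138, plus strand): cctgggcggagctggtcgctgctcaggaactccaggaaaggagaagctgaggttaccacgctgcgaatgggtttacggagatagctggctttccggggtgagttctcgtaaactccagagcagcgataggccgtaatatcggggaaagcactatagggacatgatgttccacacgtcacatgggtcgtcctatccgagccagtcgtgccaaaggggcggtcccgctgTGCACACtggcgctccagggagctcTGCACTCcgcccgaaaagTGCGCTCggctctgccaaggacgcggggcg
Mt2 (chr8:94172368-94172667, plus strand): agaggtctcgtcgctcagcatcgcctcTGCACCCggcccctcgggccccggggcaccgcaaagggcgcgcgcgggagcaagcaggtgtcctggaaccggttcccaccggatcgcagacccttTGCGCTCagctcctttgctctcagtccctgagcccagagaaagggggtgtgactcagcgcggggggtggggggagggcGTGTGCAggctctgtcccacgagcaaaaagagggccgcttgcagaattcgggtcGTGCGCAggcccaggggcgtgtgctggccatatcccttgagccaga

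The mitotic genes were described by 5 lists of 120 genes, all of them tested. Of these, 61 (50.8%, against 1.36% of all genes) were higher at pH 7 and none was lower. The median log2 fold change was 0.60, against 0.002 over all genes. The rise was seen within each pair, with medians of 0.44, 0.77, 0.78, 0.37 and 0.53 in n1 to n5, and 112 of the 120 had a positive change. The groups nevertheless overlapped for most members: the 5 libraries of pH 7 lay wholly above those of pH 7.4 for 5 of the 120, against 201 of all genes (1.45%) whose groups did not overlap in either direction. The overlap went with the replicates, whose own mitotic levels differed. The mean log2 CPM of the 120 genes at pH 7.4 was 3.92, 4.01, 4.10, 3.55 and 3.43 in n1 to n5, and at pH 7 it was 4.39, 4.67, 4.80, 3.97 and 4.0. n4 and n5 were the lowest in both media. The count of 61 fell to 8 without n2 and 30 without n3, while the median stayed between 0.55 and 0.64 whichever replicate was left out. Without the replicate block 19 passed.

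Of the mitotic cyclins, kinases and regulators, 13 of 20 rose (65%, against 1.36% of all genes), with a median log2 fold change of 0.84. Ccna2, the cyclin that works in S and G2 phases, was at 17.2, 17.2, 24.4, 8.43 and 6.72 CPM in n1 to n5 at pH 7.4 and at 34.4, 45.0, 50.9, 18 and 16.9 CPM at pH 7. It was higher at pH 7 in all 5 pairs, though n4 and n5 at pH 7 lay within the range of pH 7.4 (log2 fold change 1.16 ± 0.20 SE, adjusted p = 0.00151). Aurka, the kinase of the spindle poles, whose promoter is shown above, was at 4.04, 5.07, 4.91, 2.46 and 3.17 CPM at pH 7.4 and at 6.80, 11.2, 10.7, 5.54 and 5.71 CPM at pH 7. Here the lowest pH 7 library was above the highest pH 7.4 library (1.02 ± 0.17, adjusted p = 0.00109). Ccnb1, the cyclin that takes cells into mitosis, rose by 0.93 ± 0.17 (adjusted p = 0.00179), a call that was lost without n2 (adjusted p = 0.0681). Only 76.6% of the 50-base windows of Ccnb1 transcripts are its own, so it may be undercounted. Of other members, Plk1, the kinase of mitotic entry, rose by 0.85 ± 0.16, and Foxm1, a transcription factor of G2 and M genes, by 0.87 ± 0.18, 2 genes chosen after their values were seen. Plk1 did not pass without n2 (adjusted p = 0.0620), nor Foxm1 without n2 or n3 (adjusted p = 0.149 and 0.0785).

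Spindle motors, microtubule proteins and cytokinesis genes were the group with the highest share of calls, 24 of 32 (75%), and the highest median, 0.86. Kif4, a motor of the chromosome arms and of the midzone of the spindle, was at 6.85, 7.93, 8.60, 3.38 and 3.21 CPM at pH 7.4 and at 13.6, 18.6, 22.1, 7.18 and 7.19 CPM at pH 7. It rose in every pair (1.17 ± 0.21, adjusted p = 0.00151), while n4 and n5 at pH 7 lay among the pH 7.4 libraries. Kif14, a motor of cytokinesis, rose by 1.21 ± 0.22 (adjusted p = 0.00236, and 0.0520 without n2). Kif20a, another cytokinesis motor, rose by 0.98 ± 0.17 and Spag5, a spindle protein, by 0.99 ± 0.17 (adjusted p = 0.00147 for each). Pimreg, a mitotic regulator, rose by 1.29 ± 0.23 (adjusted p = 0.00178). For Kif20a, 29.3% of the exon bases are overlapped by a gene of the other strand, and for Kif4 15.1%, and the strand setting of the counting is not given in the sources used here.

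Kinetochore and spindle checkpoint genes rose in 13 of 30 (43.3%, median 0.67). Genes of chromosome condensation, cohesion and passenger proteins rose in 10 of 20 (50%, median 0.49). Espl1, separase, the protease that cuts cohesin at anaphase, had the largest rise of the mitotic genes. It was at 4.56, 4.99, 8.05, 2.13 and 2.57 CPM at pH 7.4 and at 9.99, 16.6, 15.8, 5.41 and 8.43 CPM at pH 7 (1.33 ± 0.22, adjusted p = 0.00101, and 0.0516 without n2). It rose in all 5 pairs and the groups overlapped. Bub1b, a kinase of the spindle checkpoint, rose by 0.87 ± 0.16 (adjusted p = 0.00178) and Cenpn, a centromere protein, by 1.03 ± 0.20 (0.00329). Both calls were lost without n2 (adjusted p = 0.0584 and 0.0903). Top2a, the topoisomerase that untangles chromosomes, was at 84.0 to 124 CPM at pH 7.4 and 120 to 252 CPM at pH 7 (0.69 ± 0.13, adjusted p = 0.00241, and 0.0525 without n2), and Ncaph, of the condensin I complex, rose by 0.78 ± 0.14 (adjusted p = 0.00147, and 0.0605 without n2).

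The anaphase-promoting complex, the ubiquitin ligase that ends mitosis, with a median of 0.06, gave 1 call of 18 (5.56%, against 1.36% of all genes). The call was its activator Cdc20, at 6.43 to 15.5 CPM at pH 7.4 and 13.1 to 27.9 CPM at pH 7 (0.80 ± 0.17, adjusted p = 0.00512, and 0.0710 without n2). The core subunits of this ligase are not confined to dividing cells. Other rises among the 12 largest were in genes outside the lists that are known from dividing cells: Neil3, a DNA glycosylase (1.31 ± 0.23, adjusted p = 0.00151), Iqgap3, a scaffold protein (1.25 ± 0.26, 0.00591), Troap, a spindle-associated protein (1.22 ± 0.23, 0.00241), and Pif1, a DNA helicase (1.21 ± 0.24, 0.00455). Without n2 Iqgap3, Troap and Pif1 did not pass (adjusted p 0.12, 0.0662 and 0.0850).

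**Figure D2:**
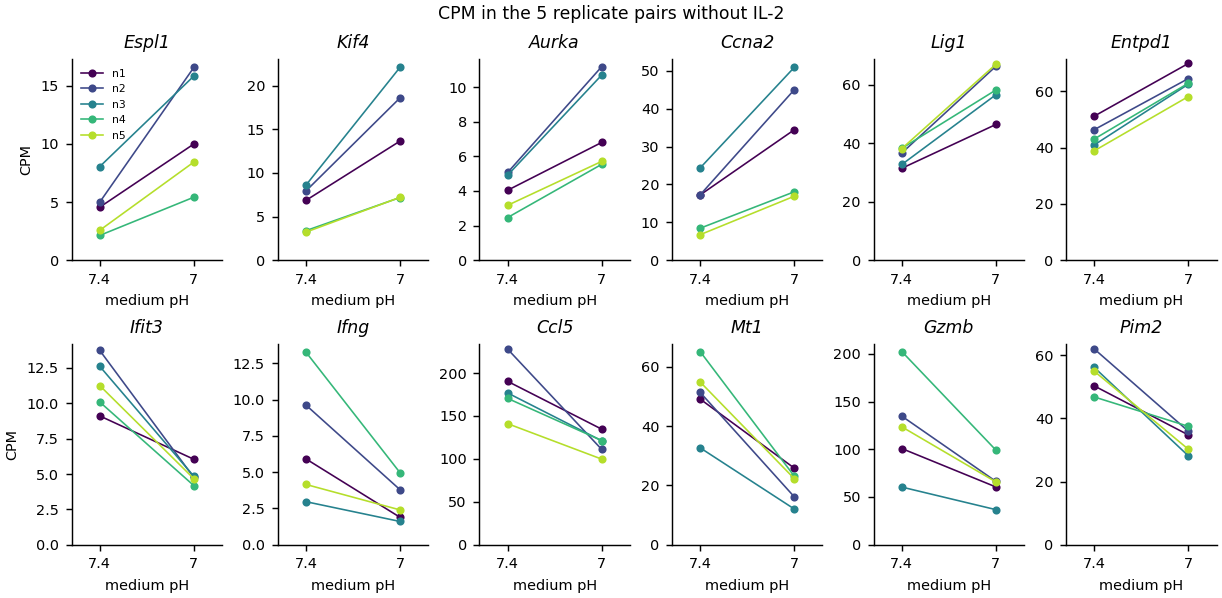
CPM (y axes, from 0) of 12 genes in the 5 replicate pairs without IL-2, with a line from the pH 7.4 library to the pH 7 library of the same replicate. All lines rise in the upper row and fall in the lower row, and the replicates differ in level for most genes.

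Genes of DNA replication and S phase moved less than those of mitosis. Of 56 tested, 4 rose and none fell, a share of 7.14% against 1.36% of all genes, and the median was 0.10, with pair medians of 0.05, 0.10, 0.24, 0.10 and 0.04. Lig1, the ligase that joins Okazaki fragments, had the smallest adjusted p of the list, though not its largest rise. It was at 31.4, 36.7, 32.7, 38.3 and 38.2 CPM at pH 7.4 and at 46.4, 66.4, 56.6, 58.2 and 67.0 CPM at pH 7. The groups did not overlap (0.72 ± 0.09, adjusted p = 5.94e-06). Rrm2, a subunit of ribonucleotide reductase, rose by 0.76 ± 0.18 (adjusted p = 0.0160) and Clspn, claspin of the replication checkpoint, by 0.83 ± 0.20 (0.0201). Rrm2 did not pass without n2 or n3 (adjusted p 0.141 and 0.173), and Clspn not without n2, n3 or n4 (0.232, 0.173 and 0.0535). The count of 4 was 1 without n2 or n3 and 2 without n4.

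No gene passed among 17 D cyclins and CDK inhibitors (median -0.01), 22 p53 targets (-0.08) and 35 c-Myc targets in ribosome production (-0.04). At an unadjusted p under 0.05, 2 of the c-Myc targets were found. Myc itself, the growth regulator that IL-2 induces, was at 13.1 to 21.7 CPM at pH 7.4 and 12.5 to 17.7 CPM at pH 7 (-0.09 ± 0.12, adjusted p = 0.991). Of the 11 genes of the Myc network 2 rose (18.2%, against 1.36% of all genes), Mxd3 and Mycn. Mxd3, a repressor of the network that is read in S and G2 phases, rose by 1.16 ± 0.25 (adjusted p = 0.00813, and 0.153 without n2 and 0.0748 without n5). Mycn was at 1.29 to 2.63 CPM and 2.60 to 2.99 CPM (0.52 ± 0.14, adjusted p = 0.0431). The Mycn call held only without n3 among the 5 fits that left out a replicate, and its adjusted p reached 0.260 without n1. Of 32 components of the mTORC1 pathway, Deptor, an inhibitor of mTOR, alone passed (3.13% higher, against 1.36% of all genes). All its pH 7 libraries (4.83 to 7.32 CPM) lay above those of pH 7.4 (3.57 to 4.15 CPM). The change was 0.76 ± 0.20 (adjusted p = 0.0381, and 0.0787 to 0.302 without n2, n3, n4 or n5). Rheb, the activator of mTORC1, and Tsc2, its inhibitor, had values of -0.12 ± 0.09 and 0.08 ± 0.10. The remaining lists of metabolism and stress (cholesterol, ATF4, ER chaperones, heat shock, glycolysis, glutamine and proline, polyamine, MondoA and HIF) had no call and medians between -0.06 and 0.07.

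**Figure D3:**
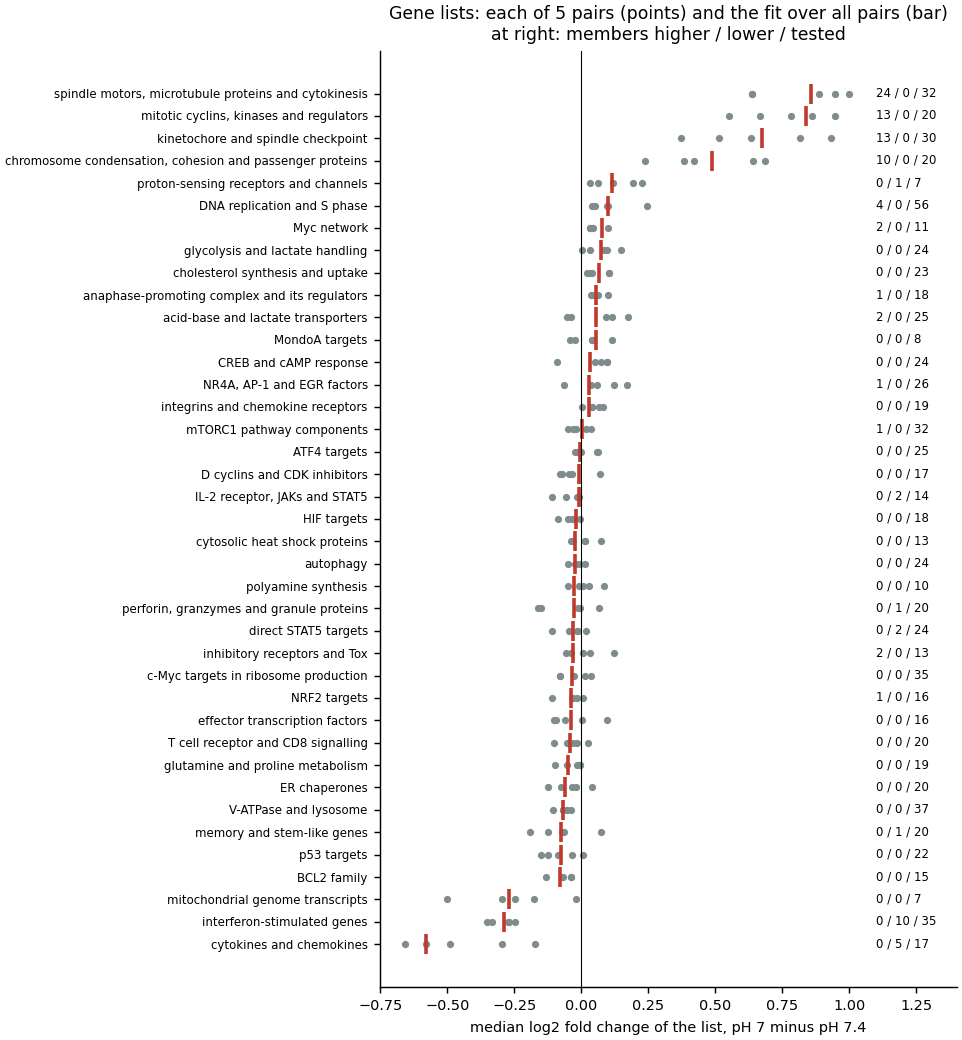
Median log2 fold change of pH 7 over pH 7.4 (x axis) for each gene list with at least 7 genes tested, without the lists of cell type markers. Each list has a grey point per replicate pair and a red bar for the fit over all pairs. The 4 highest lists are mitotic (0.49 to 0.86), the 2 lowest are interferon-stimulated genes (-0.29) and cytokines and chemokines (-0.58), and most others lie within 0.1 of 0.

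Interferon-stimulated genes were lower at pH 7. All 35 of the list were tested, 10 fell (28.6%, against 0.318% of all genes) and none rose, and every member had a negative change. The median was -0.29, and the pair medians were -0.25, -0.35, -0.33, -0.27 and -0.27, so this fall was smaller than the mitotic rise but more alike between replicates. Ifit3, an antiviral protein that binds foreign RNA complexes, was at 9.11, 13.7, 12.6, 10.1 and 11.3 CPM at pH 7.4 and at 6.04, 4.76, 4.84, 4.18 and 4.67 CPM at pH 7. The groups did not overlap (-1.25 ± 0.20, adjusted p = 0.000823). Only 48.8% of the 50-base windows of Ifit3 are its own. Ifit1, of the same family, fell by 0.99 on the log2 scale (± 0.23, adjusted p = 0.0152), a call that held only without n1 among the fits that left out a replicate (0.0508 to 0.255 in the others). Oasl2, an RNA-sensing antiviral protein, was at 6.55 to 12 CPM and 3.39 to 5.12 CPM, without overlap (-0.91 ± 0.22, adjusted p = 0.0228, and 0.0751 to 0.129 without n2, n3, n4 or n5).

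Among other members, Gbp4, an interferon-induced GTPase, fell from 551 to 931 CPM at pH 7.4 to 353 to 598 CPM at pH 7 (-0.67 ± 0.13, adjusted p = 0.00425, and 0.0525 without n2), and Cmpk2, a mitochondrial nucleotide kinase, by 0.55 on the log2 scale (± 0.11, adjusted p = 0.00281, and 0.0917 without n2). The count of 10 was 1 without n2, 3 without n3 or n5 and 5 without n4, 2 without the block, and 25 in a fit of the 10 libraries alone.

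Other genes that are related to these or that interferon can induce are not in the list. Gbp10, a further GTPase, had a change of -1.06 ± 0.21 (adjusted p = 0.00383, and 0.0508 without n3 and 0.0533 without n5), but only 15.9% of its windows are its own. Ifi204, a DNA sensor, was at 2.67 to 6.05 CPM and 1.88 to 2.60 CPM (-0.85 ± 0.17, adjusted p = 0.00324, and 0.0905 without n2 and 0.0605 without n4). Ifi207, a gene of the same family chosen after its values were seen, was too low for the rule on named genes, at 0.711, 1.81, 1.65, 2.42 and 2.18 CPM at pH 7.4 and at 0.294, 0.415, 0.410, 0.574 and 0.289 CPM at pH 7. Its groups did not overlap (-2.10 ± 0.24, adjusted p = 2.75e-06, and at most 0.000463 without a replicate). The share of its sequence held by related genes was not computed. Ifitm1 and Ifitm2, also chosen after their values were seen, rose (0.40 ± 0.10 and 0.56 ± 0.13).

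Cytokines and chemokines were lower as a list, with a median of -0.58. Of the 17 tested 5 fell (29.4%, against 0.318% of all genes) and none rose. The pair medians were -0.49, -0.58, -0.17, -0.66 and -0.29. Ifng, interferon-gamma, was at 5.91, 9.62, 2.96, 13.3 and 4.15 CPM at pH 7.4 and at 1.89, 3.79, 1.60, 4.96 and 2.40 CPM at pH 7. The replicates differed several fold in level, and each was lower at pH 7 (-1.28 ± 0.28, adjusted p = 0.00813, and 0.0710 without n2). A gene of the same strand overlaps 25.9% of the exon bases of Ifng. Ccl3, an inflammatory chemokine, was at 1.97, 4.32, 1.95, 7.01 and 1.37 CPM and at 0.336, 0.802, 0.857, 1.27 and 0.579 CPM, without overlap (-2.03 ± 0.34, adjusted p = 0.000848). Ccl4, its close relative, fell from 3.73 to 8.05 CPM to 1.71 to 2.71 CPM (-1.19 ± 0.23, adjusted p = 0.00303), also without overlap.

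Ccl5, the most plentiful of these chemokines in counts, was at 190, 228, 177, 170 and 141 CPM at pH 7.4 and at 135, 111, 121, 121 and 99.7 CPM at pH 7 (-0.62 ± 0.11, adjusted p = 0.00151, and 0.0620 without n2). Every pH 7 library was below every pH 7.4 library. Xcl1, a chemokine for dendritic cells, fell by 0.95 on the log2 scale (± 0.25, adjusted p = 0.0404, and 0.0972 to 0.256 without n2, n3, n4 or n5). Tnf was at 9.70 to 26.4 CPM and 9.91 to 22.9 CPM (-0.01 ± 0.19, adjusted p = 1), and Il2 had 3 to 6 counts per library at pH 7.4 and 1 to 4 at pH 7, too few to be tested. The count of 5 was 2 without n2, and the median of the list was -0.12 over the members with at least 10 counts in every library.

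Of the 20 genes of perforin, granzymes and granule proteins 1 fell (5%, against 0.318% of all genes). Gzmb, granzyme B, the protease that kills target cells, was at 101, 135, 60.4, 202 and 123 CPM at pH 7.4 and at 60.5, 66.4, 36.7, 99.1 and 65.8 CPM at pH 7. Each replicate fell to about the same degree (-0.90 ± 0.17, adjusted p = 0.00231), and the groups overlapped. Without IL-2 its level was far below the 7958 ± 1061 CPM (SD, n = 5) of the start of culture in both media. Prf1, perforin, was at 16.5 to 41.0 CPM and 16.4 to 28.7 CPM (-0.32 ± 0.17, adjusted p = 0.687). Serpinb9b, a serpin of the granzyme inhibitor family, was at 1.45, 15.3, 6.48, 15.3 and 10.0 CPM and at 1.13, 6.20, 3.69, 5.54 and 4.51 CPM, with n1 low in both media (-1.09 ± 0.18, adjusted p = 0.000848).

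In the IL-2 pathway 2 of 14 genes of the receptor, JAK and STAT list fell (14.3%, against 0.318% of all genes), among them Il7r. Of 24 direct STAT5 targets 2 fell (8.33%), Gzmb and Pim2. Il7r, the receptor for the survival cytokine IL-7, was at 74.9 to 106 CPM and 46.4 to 76.2 CPM (-0.71 ± 0.14, adjusted p = 0.00344, and 0.0605 without n2). Pim2, a survival kinase, was at 50.3, 62.0, 56.1, 46.8 and 54.9 CPM at pH 7.4 and at 34.8, 35.9, 28.1, 37.5 and 30.2 CPM at pH 7, without overlap (-0.69 ± 0.14, adjusted p = 0.00324, and 0.0525 without n2). The receptor chains Il2ra (-0.02 ± 0.10), Il2rb (0.12 ± 0.10) and Il2rg (-0.14 ± 0.08) did not pass, nor did Jak1 (0.12 ± 0.07), Jak3 (0.08 ± 0.13), Stat5a (-0.11 ± 0.09) or Stat5b (0.01 ± 0.07), with adjusted p between 0.682 and 0.995. Slc1a5, a glutamine transporter, and Aldh18a1, the first enzyme of proline synthesis, had values of -0.11 ± 0.09 and -0.04 ± 0.07.

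Of 7 proton-sensing receptors and channels tested 1 fell (14.3%, against 0.318% of all genes), and 6 had a positive change. Gpr65, a receptor that responds to extracellular acid through cAMP, was at 28.6, 28.3, 27.7, 34.4 and 25.9 CPM at pH 7.4 and at 27.2, 22.3, 22.5, 24.5 and 17.2 CPM at pH 7 (-0.36 ± 0.09, adjusted p = 0.0282). The groups overlapped only through n1 at pH 7 and n5 at pH 7.4, and the call was kept only without n1 (0.145 to 0.174 in the others). A gene of the other strand overlaps 24.7% of its exon bases. Gpr132, of the same receptor family, was higher in 5 of 5 pairs without passing (0.16 ± 0.08, adjusted p = 0.623), and Gpr4 had at most 3 counts in any of the 10 libraries. Of 25 acid-base and lactate transporters 2 rose (8%, against 1.36% of all genes). Slc4a11, a membrane transporter, was at 6.11, 5.30, 5.25, 8.18 and 7.32 CPM and at 9.19, 11.6, 7.64, 12.6 and 12.3 CPM (0.72 ± 0.12, adjusted p = 0.000834). Car13, a cytosolic carbonic anhydrase, was low, at 0.0785 to 0.129 CPM and 0.168 to 0.615 CPM, without overlap (1.64 ± 0.38, adjusted p = 0.0131, and 0.0826 to 0.262 without n2, n3, n4 or n5). Its counts were few, 2 to 4 per library at pH 7.4 and 4 to 15 at pH 7, with 4 in n1 in both media. It was at 1.03 ± 0.09 CPM (SD, n = 5) at pH 7.4 with IL-2, and the expression filter ran over all 7 groups.

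The metallothioneins, which bind zinc and copper and whose promoters are shown above, also fell. Mt1 was at 49.1, 51.4, 32.7, 65.2 and 54.9 CPM at pH 7.4 and at 25.9, 16.2, 12.1, 23.2 and 22.3 CPM at pH 7 (-1.36 ± 0.15, adjusted p = 2.75e-06). Mt2 was at 47.5, 48.1, 26.6, 73.3 and 54.4 CPM and at 22.9, 15.2, 10.2, 21.9 and 20.3 CPM (-1.46 ± 0.17, adjusted p = 5.94e-06). Neither gene's groups overlapped, and the adjusted p was at most 0.000664 for Mt1 and 0.00292 for Mt2 whichever replicate was left out. A gene of the other strand overlaps 73.5% of the exon bases of Mt2, and none those of Mt1.

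Of the other genes named by size or list, Dhrs3, a retinal reductase that is induced by retinoic acid, was at 23.6, 15, 18.7, 13.3 and 18.3 CPM and at 43.0, 42.1, 44.0, 38.2 and 41.1 CPM. Its pH 7 libraries were close together and well above all of pH 7.4 (1.24 ± 0.13, adjusted p = 1.19e-06). Entpd1, CD39, the surface enzyme that breaks down ATP, rose from 38.9 to 51.2 CPM to 58.1 to 69.9 CPM without overlap (0.53 ± 0.09, adjusted p = 0.000834), and Pdcd1, the inhibitory receptor PD-1, was at 9.63 to 30.3 CPM and 14.1 to 39.9 CPM (0.45 ± 0.12, adjusted p = 0.0431, a call that no fit without a replicate kept, 0.0887 to 0.180). These were the 2 calls among 13 inhibitory receptors and Tox genes (15.4% higher, against 1.36% of all genes), whose median was -0.03. P2rx7, the channel opened by extracellular ATP, rose by 1.19 ± 0.21 (adjusted p = 0.00151), with n1 high in both media (3.91 and 6.84 CPM). Osgin1, an NRF2 target, rose by 0.76 ± 0.19 (adjusted p = 0.0229, and 0.0887 to 0.162 without n2, n3 or n4), Dusp2, a phosphatase of MAP kinases, by 0.39 ± 0.10 (adjusted p = 0.0237, and 0.0887 to 0.271 without n2, n3, n4 or n5), and Ripply3, a transcriptional corepressor, by 1.23 ± 0.18 (adjusted p = 0.000274). Osgin1 was the only call among 16 NRF2 targets tested (6.25% higher, against 1.36% of all genes). Of these 16 targets, 11 had a negative change and 5 a positive one, and the median was -0.04. No gene passed among the lists of T cell receptor and CD8 signalling, integrins and chemokine receptors, effector transcription factors, CREB and cAMP response, lysosome, autophagy and the BCL2 family, whose medians lay between -0.08 and 0.03. The 7 mitochondrial genome transcripts tested had no call, with a median of -0.27 and pair medians from -0.50 to -0.02.

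Immunoglobulin constant genes were also among the rises. Igha was at 45.8, 10.8, 10.5, 8.60 and 8.52 CPM at pH 7.4 and at 49.7, 36.3, 33.8, 26.6 and 28.9 CPM at pH 7. n1 was the highest in both media and changed the least (1.44 ± 0.20, adjusted p = 7.83e-05). Ighm was the only call among 4 B cell markers tested (25% higher, against 1.36% of all genes). It rose by 0.35 ± 0.09 (adjusted p = 0.0209, kept only without n1), in 4 of 5 pairs. Neither Igha nor Ighm passed in a fit of the 10 libraries alone. The summed level of the 13 B cell markers, nearly all of it Ighm, was 268 to 745 CPM at pH 7.4 and 403 to 633 CPM at pH 7, while Ms4a1, Pax5, Cd22 and Blnk had no count. Cd74, of antigen presentation, was low, at 1.02 to 1.96 CPM and 0.304 to 1.05 CPM (-1.20 ± 0.23, adjusted p = 0.00281, and 0.0520 without n2). It was the only call among 8 dendritic cell markers tested (12.5% lower, against 0.318% of all genes). Their summed level was 147 to 204 CPM at pH 7.4 and 162 to 201 CPM at pH 7, and Clec9a, Siglech and Cd209a had no count. Most of that sum was Ccr7, at 101 to 176 CPM at pH 7.4 and 118 to 166 CPM at pH 7. The myeloid, NK cell, CD4 and regulatory T cell, red cell and platelet, and stromal lists had no call. The myeloid sum was 15.9 to 26.9 CPM and 19.1 to 28.2 CPM, and the NK cell sum 178 to 200 CPM and 176 to 195 CPM. Most of the NK cell sum was Eomes, at 136 to 157 CPM and 128 to 151 CPM.

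The same step from pH 7.4 to pH 7 in the presence of IL-2, measured in 10 other libraries, did not raise the mitotic genes. With IL-2, 1264 genes were higher (9.15%) and 1359 lower (9.83%) at pH 7. The median of the 120 mitotic genes was -0.14, with none higher and 7 lower. The difference between the effects, tested as an interaction in the same fit, passed for 662 genes (4.79%), with the effect without IL-2 the more positive for 359 (2.60%) and the more negative for 303 (2.19%). It passed for 69 of the 120 mitotic genes, all with the more positive effect without IL-2, and their median difference was 0.81. Ccna2 had a change of -0.14 ± 0.19 with IL-2 against 1.16 without (adjusted p of the difference 0.00651), and Aurka of -0.27 ± 0.14 against 1.02 (0.00137). The count of 662 was 98 without n3, 101 without n2, 304 without n4, 378 without n5 and 711 without n1.

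**Figure D4:**
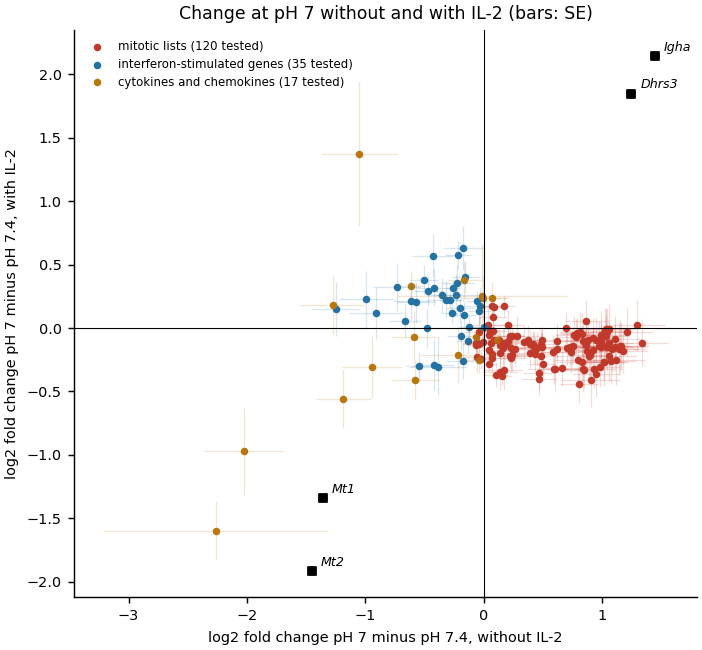
Log2 fold change of pH 7 over pH 7.4 without IL-2 (x axis) and with IL-2 (y axis) for all tested members of 3 gene groups, with SE bars, and 4 named genes as squares. Mitotic genes (red) spread to the right along 0, most interferon-stimulated genes (blue) lie at upper left, and Mt1 and Mt2 lie low and Igha and Dhrs3 high on both axes.

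For the interferon-stimulated genes the median was 0.20 with IL-2, with 6 higher and none lower, and the interaction passed for 15 of 35, all more negative without IL-2. Ifit3 (0.15 ± 0.21 with IL-2), Ifng (0.18 ± 0.23) and Ccl5 (0.33 ± 0.12) passed the interaction, with adjusted p of 0.00536, 0.0173 and 0.00108. Ccl3 (-0.97 ± 0.35 with IL-2), Ccl4 (-0.56 ± 0.23), Gzmb (-0.46 ± 0.16) and Ifi204 (-1.24 ± 0.16) did not (adjusted p 0.231, 0.294, 0.313 and 0.381). Of these, Ccl3, Gzmb and Ifi204 passed as lower at pH 7 with IL-2. The interaction passed for 3 of the 17 cytokines and chemokines tested, all more negative without IL-2. For Mt1 and Mt2 the change with IL-2 was -1.34 ± 0.15 and -1.92 ± 0.18, and the interaction did not pass (adjusted p = 0.980 and 0.314). Dhrs3 (1.85 ± 0.19 with IL-2), Igha (2.14 ± 0.26), P2rx7 (1.22 ± 0.19), Slc4a11 (0.72 ± 0.12) and Pim2 (-0.65 ± 0.13) likewise changed with IL-2 without a call for the interaction.

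**Figure D5:**
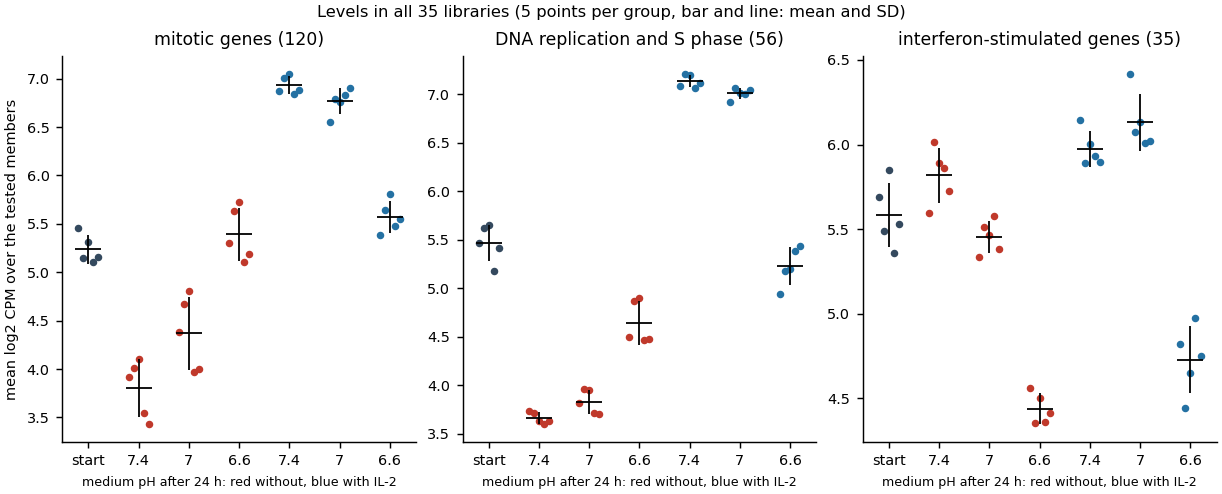
Mean log2 CPM over the tested members (y axes) of 3 gene groups in every library, by group of samples (x axes), with group mean and SD. Without IL-2 (red) mitotic genes rise and interferon-stimulated genes fall from pH 7.4 to pH 7 to pH 6.6, and with IL-2 (blue) mitotic and replication genes are highest at pH 7.4.

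The level of the mitotic genes at pH 7 lay between those at pH 7.4 and pH 6.6. Their mean log2 CPM was 3.8 ± 0.30 (SD, n = 5) at pH 7.4, 4.37 ± 0.38 at pH 7 and 5.39 ± 0.27 at pH 6.6 without IL-2, against 5.24 ± 0.15 at the start of culture and 6.93 ± 0.09 at pH 7.4 with IL-2. The pH 7 libraries (3.97 to 4.80) all lay below those of the start of culture (5.11 to 5.46), a difference that was not tested. From pH 7 to pH 6.6 the median change of the 120 genes was 1.01 (66.6% of all genes passed in that comparison, 30.9% higher and 35.7% lower, which shares the pH 7 libraries with the main one). Aurka was at 3.93 ± 1.12 CPM, 7.98 ± 2.74 CPM and 19 ± 3.43 CPM at pH 7.4, 7 and 6.6, and at 88.6 ± 8.01 CPM at pH 7.4 with IL-2.

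The interferon-stimulated genes ran the other way, with a mean log2 CPM of 5.82 ± 0.16, 5.45 ± 0.10 and 4.44 ± 0.09 at pH 7.4, 7 and 6.6. Ifit3 was at 11.4 ± 1.87 CPM, 4.90 ± 0.69 CPM and 0.715 ± 0.410 CPM. Mt1 was at 50.7 ± 11.8 CPM, 19.9 ± 5.64 CPM and 10.6 ± 3.23 CPM, and at 82.7 ± 18.7 CPM, 32.3 ± 6.69 CPM and 9.45 ± 2.48 CPM in the 3 media with IL-2. Dhrs3 and P2rx7 were highest at pH 7. Dhrs3 was at 17.8 ± 3.95 CPM, 41.7 ± 2.24 CPM and 28.6 ± 3.77 CPM, with a change from pH 7 to pH 6.6 of -0.55 (adjusted p = 0.00042), and P2rx7 fell by 2.24 on the log2 scale from pH 7 to pH 6.6 (adjusted p = 9.7e-10). Gzmb was lowest at pH 7, at 124 ± 52.1 CPM, 65.7 ± 22.3 CPM and 86.5 ± 16.9 CPM, and rose from pH 7 to pH 6.6 by 0.44 (adjusted p = 0.0204). Osgin1 and Deptor fell from pH 7 to pH 6.6 by 1.04 and 1.05 on the log2 scale.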

How the data were processed

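RNA of 35 libraries (7 groups, 5 biological replicates each) was prepared with a stranded polyadenylated RNA kit and read as single Illumina reads. The authors deposited raw counts of reads per gene, 1 table per library. The submitters' processing notes name cutadapt 1.8, STAR 2.5.2b, HTSeq 0.6.1 and the build GRCm38. The annotation, read length and strand setting are not given in the sources used here. Totals and tests used gene rows only, which leaves out reads aligned to several places (32.8% to 37.1% of the reads in the 10 libraries compared), outside genes (7.70% to 11.1%) or on several genes (0.871% to 0.966%), so a gene with a near-identical copy may be undercounted. Symbols of 48349 of 48709 genes, and coordinates, came from GENCODE M21 (GRCm38), and the share of 50-base windows found in no other gene from its transcripts.

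In R 4.3.3, edgeR 4.0.16 kept 13819 genes (filterByExpr over the 7 groups, minimum count 10), scaled the libraries by TMM and fitted a robust quasi-likelihood model to all 35, in which group and replicate number were terms, the latter as a block. Log2 CPM of single libraries used a prior count of 2. Fold changes are given with SE, and Benjamini-Hochberg adjustment ran over all genes tested. The numbers n1 to n5 paired the samples: deviations of same-numbered pH 7 and pH 7.4 libraries from their group means correlated at 0.364 to 0.622 in 5 of 5 pairs, with a median of -0.140 over the 20 other pairings, and the study's methods use paired tests. Named genes were the 12 largest rises and 12 largest falls among called genes whose mean log2 CPM reached 1 and whose 5 pairs all moved one way, up to 3 members of each list by smallest adjusted p, and genes of the study's pathway and proton-sensing receptors. Exceptions are stated, and some genes are not reported here.

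The members and the 46 gene lists were chosen with earlier results of these data known. Lists are described by counts and medians, without a test. The fit was tested on simulated data. The alternatives tried were RLE scaling, DESeq2 1.42.0, filters at 1 count in any library and 10 in every library, a fit of the 10 libraries alone, a fit with no replicate block, omission of each replicate from all groups, and thinning to 16721319 counts per library.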

Additional observations from a re-analysis of the deposited data

Results flagged for a closer look

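For 32 of 70 named genes tested the effect of pH 7 differed without and with IL-2 (adjusted p under 0.05, edgeR interaction term). Over all genes the share was 4.79%, 662 of 13819. Most of the named genes were chosen by their change without IL-2, which is part of this difference. The count of 32 is therefore favoured by the choice. The values below are the effect without minus the effect with IL-2, on the log2 scale. Among genes of cell division and DNA replication the effect without IL-2 was the more positive for Espl1 (1.45), Neil3 (1.04), Pimreg (1.27), Iqgap3 (1.16), Troap (1.38), Pif1 (1.34), Kif14 (1.24), Kif4 (1.35), Aurka (1.28) and Ccna2 (1.3), and for Ccnb1 (1.26), Bub1b (1.05), Cenpn (1.09), Kif20a (1.29), Spag5 (1.09), Ncaph (0.817), Top2a (0.691), Cdc20 (1.24), Lig1 (0.614) and Rrm2 (0.902). It was also the more positive for the carbonic anhydrase gene Car13 (1.49), which had few counts without IL-2, and the transcription factor genes Mxd3 (1.08) and Mycn (1.09). It was the more negative for Ifng (-1.46), Ifit3 (-1.4), Gbp10 (-1.53), Ifit1 (-1.22), Oasl2 (-1.03), Dusp2 (-0.579), Ccl5 (-0.954), Gbp4 (-0.719) and Cd74 (-1.72), most of them genes that interferon induces, cytokines or chemokines.

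In 5 of 140 groups of 5 libraries checked (70 named genes), 1 library stood far from the other 4. The measure was a gap relative to the range of the group above 0.71, with both on the log scale of CPM. Chance gives about 1 such group in 20. Igha was highest in n1 at pH 7.4 (45.8 CPM, ratio 0.86), and Ncaph was highest in n3 at pH 7.4 (8.34 CPM, 0.71). Pdcd1, the inhibitory receptor PD-1, was lowest in n1 at pH 7.4 (9.63 CPM, 0.725). Oasl2 was lowest in n5 at pH 7 (3.39 CPM, 0.75) and Aldh18a1 highest in n5 at pH 7 (71.0 CPM, 0.78).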

How the results depend on the processing

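Every called gene kept its direction in each of the 12 alternative fits that tested it, a weak check because the genes were called on the same data. RLE scaling gave 220 calls, DESeq2 306, the looser filter 172, the stricter filter 197 and thinning 220, against 232. Without the replicate block 56 genes passed (45 higher, 11 lower), and in a fit of the 10 libraries alone 942 did (601 higher, 341 lower). Leaving out a replicate gave 35 to 332 calls, 25 to 260 higher and 10 to 72 lower. Of the 232 genes 31 passed in all 5 of those fits. The difference between the effects without and with IL-2 passed for 1016 genes in DESeq2 (559 more positive, 457 more negative), for 326 with the looser filter (121 more positive), for 177 without the replicate block (96 and 81), and for 98 to 711 when a replicate was left out (38 to 381 and 59 to 330).

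Mitotic genes higher were 19 without the block and 8 to 60 without a replicate (medians 0.55 to 0.64). Replication genes higher were 1 with the looser filter, 9 in the 10 libraries, 1 without the block and 1 to 5 without a replicate (medians 0.07 to 0.13). Interferon-stimulated genes lower were 6, 25, 2 and 1 to 10 under the same 4 settings (medians -0.33 to -0.25 without a replicate). Cytokines lower were 8 in the 10 libraries, 3 without the block and 2 to 7 without a replicate, and their median was -0.12 with the stricter filter and -0.59 to -0.49 without a replicate. Among uncalled values near 0, the sign changed for Il2ra (-0.0716 to 0.0199 without a replicate), Stat5b (-0.00564 to 0.0353), Tnf (0.00261 in the 10 libraries and -0.0738 to 0.0671 without a replicate) and the median of the CD4 and regulatory T cell markers (-0.0202 after thinning). Prf1 passed only in the fit of the 10 libraries (adjusted p = 0.0114). The cause of these shifts was not tested. The calls rest on 5 replicates, and 3 counts in a library correspond to 0.0881 to 0.136 CPM.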

Other observations

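Some called genes outside the lists, chosen after their values were seen, belong to other functions. Cpt1a, the enzyme that admits fatty acids to the mitochondrion for oxidation, was at 130, 140, 137, 138 and 142 CPM in n1 to n5 at pH 7.4 and at 187, 195, 179, 184 and 197 CPM at pH 7. The groups did not overlap (log2 fold change 0.45 ± 0.08, edgeR adjusted p = 0.00105, at most 0.0361 without a replicate), and Cpt1a rose with IL-2 too (0.41 ± 0.08, adjusted p = 0.000341). Abca1 and Abcg1, exporters of cholesterol, fell by 0.60 and 0.39 on the log2 scale (adjusted p = 0.0313 and 0.0254), in all 5 pairs. Of the fits that left out a replicate, only the one without n1 called them, and the others gave adjusted p of 0.0959 to 0.319 for Abca1 and 0.0774 to 0.201 for Abcg1.

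Nt5e, CD73, the surface enzyme that makes adenosine from AMP, was at 270, 159, 172, 134 and 136 CPM at pH 7.4 and at 300, 212, 242, 180 and 184 CPM at pH 7. It was higher at pH 7 in each pair and highest in n1 in both media (0.38 ± 0.09, edgeR adjusted p = 0.0229, and 0.0681 to 0.171 without n2, n3, n4 or n5). Ifitm1 (0.40 ± 0.10, adjusted p = 0.0218) and Ifitm2 (0.56 ± 0.13, adjusted p = 0.0105), interferon-inducible genes of membrane proteins that restrict virus entry, rose, whereas 10 of the 35 interferon-stimulated genes fell. Ifitm1 passed only without n1 among the fits that left out a replicate, and Ifitm2 did not pass without n2 (0.167) or n4 (0.0525). Vipr2, a receptor for vasoactive intestinal peptide, was at 37.0, 11.8, 10.8, 21.4 and 17.5 CPM at pH 7.4 and at 39.4, 32.4, 26.7, 38.8 and 40.1 CPM at pH 7. It rose in each pair (0.95 ± 0.17, adjusted p = 0.00151, and 0.0525 without n2) and by 1.87 ± 0.21 with IL-2 (adjusted p of the difference 0.0380). At pH 6.6 without IL-2 it was lower than at pH 7, with a change of -2.15 ± 0.18 (adjusted p = 4.98e-12).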
